A study of Homo sapiens with 6 samples.

Results

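Genes of the proteasome were followed in SU-CCS-1 cells with and without knockdown of EWSR1::ATF1 (EA1), the fusion protein that defines clear cell sarcoma (CCS). The genes were chosen by name: protein-coding rows of the counts whose symbol is PSM, then a letter from A to G, then a number, without PSMB8 and PSMB9. The rule found 44 genes among 18118 rows, of which 13044 are protein-coding, and it used no measured value. Earlier results of these data were known when the set was chosen. The study asked what EA1 contributes to CCS, and knocked EA1 down in SU-CCS-1, an established human CCS cell line that carries the fusion, by transfection of small interfering RNA (siRNA). Polyadenylated RNA was sequenced from 6 libraries in 3 conditions of 2 libraries each. Cells of the siNeg1 condition received a negative control siRNA (genotype "KD scramble control"). Cells of siEA1-1 and siEA1-2 received siRNA against EA1 ("KD EA1-1" and "KD EA1-2"), and the labels do not say how these differ. All 6 libraries come from the same fusion-positive line. The methods name 1 siRNA against EA1, whereas the labels list both. In a DESeq2 fit over all 6 libraries, 2451 genes were higher and 2160 lower in siNeg1 than in siEA1-1, at an adjusted p under 0.05. Against siEA1-2, that fit called 2066 genes higher and 2084 lower in siNeg1. The published counts of genes changed by the knockdown equal those of siEA1-1 and differ from those of siEA1-2. The labels do not say that replicates were separate cultures, so p-values measure the spread between these libraries, which may be technical.

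The 26S proteasome degrades proteins tagged with ubiquitin. Its 20S core is a barrel of alpha rings, which gate the entrance, and beta rings, which hold the proteolytic sites. The 19S particle caps the barrel with a base of ATPases that unfold substrates and a lid that removes ubiquitin, dedicated chaperones assemble both parts, and other caps and inhibitors can take the place of the 19S particle. Its inhibitors are used against myeloma, and when it is impaired the transcription factor NFE2L1 raises its genes together through antioxidant response elements in their promoters.

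Counts summed to between 5942808 and 7599305 per library, and 3 counts, the smallest level taken as different from 0, correspond to at most 0.534 normalized CPM, the counts scaled to library size with TMM factors. All 44 proteasome genes passed edgeR's filter on low counts, as did 14571 genes in all, and 40 of them had at least 100 counts in every library. The lowest count of any was 14, for PSMB10, and the listed core genes PSMA8 and PSMB11 were not analysed here. ATF1, the 3′ partner of the fusion, counted together with the unrearranged gene, had a normalized CPM of 82.2 and 87.4 with siNeg1 and between 20.3 and 22.3 in the 4 knockdown libraries. The CCS and melanocytic markers SOX10, MITF and PMEL were abundant in every library, while MLANA was at 0.599 and 0 CPM with siNeg1. Of 8 such markers, 7 had a lower level with siNeg1 than with the average of the EA1 siRNAs at an adjusted p under 0.05. Of all genes, 21.5% were called lower in siNeg1 in that comparison. Of 9 markers of epithelial, immune, endothelial and muscle cells, CD68 and VWF have rows, and neither passed the filter. In bulk RNA, fewer cells of a kind and less RNA per cell cannot be told apart.

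Promoters of 4 genes that changed in the same direction with each EA1 siRNA are shown first, because the fusion contributes the DNA-binding part of ATF1, which binds cAMP response elements (CRE), and NFE2L1 acts at antioxidant response elements. Each window runs from 250 bases before to 50 bases after a start site and is taken from RefSeq on GRCh38.p14. PSMA3 lies at chr14:58244593-58244892 on the plus strand, PSMD12 at chr17:67366528-67366827 on the minus strand, PSMB4 at chr1:151399323-151399622 on the plus strand and PSMD5 at chr9:120842873-120843172 on the minus strand. These 4 have a single window in the table and are those of largest averaged change that hold a match, and they are printed 5′ to 3′ along the gene. Capitals mark matches, on either strand, to the CRE core TGACG or to the antioxidant response element core TGANNNNGC, which can overlap each other.
PSMA3: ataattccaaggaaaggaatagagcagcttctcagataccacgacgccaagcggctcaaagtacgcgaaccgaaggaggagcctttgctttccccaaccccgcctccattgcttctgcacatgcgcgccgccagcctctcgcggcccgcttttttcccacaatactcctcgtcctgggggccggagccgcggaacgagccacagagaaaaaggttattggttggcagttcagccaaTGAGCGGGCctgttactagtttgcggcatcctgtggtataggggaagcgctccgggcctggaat
PSMD12: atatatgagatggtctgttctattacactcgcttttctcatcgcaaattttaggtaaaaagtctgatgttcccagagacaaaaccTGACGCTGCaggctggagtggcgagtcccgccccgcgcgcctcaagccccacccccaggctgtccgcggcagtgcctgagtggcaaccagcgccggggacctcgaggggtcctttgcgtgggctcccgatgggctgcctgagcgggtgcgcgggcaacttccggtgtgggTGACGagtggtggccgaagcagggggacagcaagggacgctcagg
PSMB4: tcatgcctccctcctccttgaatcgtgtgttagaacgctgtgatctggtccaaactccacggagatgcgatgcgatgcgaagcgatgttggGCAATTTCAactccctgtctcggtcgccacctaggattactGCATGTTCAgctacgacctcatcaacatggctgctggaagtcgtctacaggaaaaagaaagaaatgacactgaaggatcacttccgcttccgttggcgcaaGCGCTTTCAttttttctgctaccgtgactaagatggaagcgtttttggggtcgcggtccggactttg
PSMD5: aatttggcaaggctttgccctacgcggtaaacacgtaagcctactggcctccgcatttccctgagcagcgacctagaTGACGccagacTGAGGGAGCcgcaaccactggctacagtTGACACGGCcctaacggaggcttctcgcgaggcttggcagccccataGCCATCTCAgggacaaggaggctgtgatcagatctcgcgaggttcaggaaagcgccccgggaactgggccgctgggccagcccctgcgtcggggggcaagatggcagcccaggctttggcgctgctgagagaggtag
PSMA3, PSMD12 and PSMD5 fell with each knockdown, whereas PSMB4 rose. The PSMD12 window holds 2 CRE cores, and the PSMD5 window holds 1. No CRE core lies in the PSMA3 or PSMB4 windows. Antioxidant response element cores number 1 in the PSMA3 and PSMD12 windows and 3 in the PSMB4 and PSMD5 windows.

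Windows were found for 38 of the 44 genes, 46 in all, and motifs were sought on both strands. The full CRE TGACGTCA was in 0 of the 46 windows and in 2.75% of 15480 windows of coding genes. The variant TGANNTCA, of which the full CRE is a special case, was in 2 windows (4.35%, against 8.53%). The CRE core TGACG was in 16 windows (34.8%, against 31.6%). The antioxidant response element core TGANNNNGC was in 27 windows (58.7%), against 42.1% of coding windows. The ETS core CCGGAA, bound by ETS factors, was in 21 windows (45.7%), against 26.2%. The CCAAT box was in 18 (39.1%, against 35.1%), the GC box GGGCGG in 31 (67.4%, against 64.5%) and the E box CACGTG in 3 (6.52%, against 9.25%). A match of letters is a description of the window and not a bound site. PSMA7, PSMB1, PSMB6, PSMB7, PSMD4 and PSMG3 have no entry.

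With siEA1-1, 15 of the 44 proteasome genes fell (34.1%) and 1 rose, in edgeR's quasi-likelihood test, with p-values adjusted by the Benjamini-Hochberg method over every gene tested. Over all 14571 genes, 20.3% were higher and 19.9% lower in siNeg1 in the same comparison. A log2FC is positive where a gene is higher in siNeg1 than in the knockdown. The genes that fell are PSMA3, PSMA5 and PSMA7 of the alpha ring, PSMB2, the ATPases PSMC1, PSMC3, PSMC5 and PSMC6, the lid genes PSMD12 and PSMD14, the chaperones PSMD5, PSMG1, PSMG2 and PSMG3, and the activator PSME3. Log2FC was positive for 37 of the 44 genes (84.1%), against 48.4% of all genes, and its median was 0.21, against -0.02 over all genes. The changes were small: the median size of log2FC was 0.22, against 0.44 over all genes, and 6 proteasome genes (13.6%) exceeded 0.5 in size, against 45.4% of all genes. The count of 15 depended on single libraries. It was 6 without siNeg1 replicate 1, where 14.8% of all genes were called higher in siNeg1, 7 without siEA1-1 replicate 2 (14.2% of all genes) and 9 without siEA1-1 replicate 1 (13.7% of all genes). These 3 counts are 13.6%, 15.9% and 20.5% of the proteasome genes. PSMB4, which rose, lost its call when any library of siNeg1 or siEA1-1 was left out.

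With siEA1-2, 9 of the 44 genes fell (20.5%) and 2 rose, where 18.2% of all genes were higher and 18.5% lower in siNeg1. The share that fell was near that of all genes. The median log2FC was 0.06, against -0.00 over all genes, with 24 genes positive and 20 negative. PSME2 fell with siEA1-2 and had an adjusted p of 0.149 with siEA1-1 in the same edgeR test, and PSME4 and PSMB4 rose. Without siNeg1 replicate 1, the count that fell was 3 (6.82%, against 12.6% of all genes) and the count that rose was 1 (2.27%, against 12.7%). The count that rose was also 1 without siNeg1 replicate 2 and without siEA1-2 replicate 1.

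Averaged over both EA1 siRNAs, 13 genes fell (29.5%) and 1 rose, where 22.1% of all genes were higher and 21.5% lower in siNeg1. Without siNeg1 replicate 1 these counts were 6 (13.6%) and 0, where 15.7% of all genes were higher and 14.8% lower in siNeg1. Each comparison uses the same siNeg1 libraries, so calls with the 2 EA1 siRNAs are not independent of each other. With each siRNA, 8 genes were called lower after knockdown (18.2%), against 15.1% of all genes, and 1, PSMB4, was called higher, against 14.8% of all genes. The 8 are PSMG3, PSMA3, PSMG2, PSMD12, PSMC5, PSMD5, PSMC6 and PSME3. The calls of PSMG3 and PSMA3 held with each siRNA in all 13 alternatives, whereas PSMC6 was called in 6 with siEA1-1 and 8 with siEA1-2, and PSME3 in 11 and 5. Both siNeg1 libraries lay above all 4 knockdown libraries for 17 proteasome genes (38.6%), against 27.3% of all genes. Both lay below them for PSMB4, against 28.1% of all genes, and the groups overlapped for the other 26. Of the 44 genes, 25 (56.8%) were called in no comparison, against 51.7% of all genes.

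**Figure D1:**
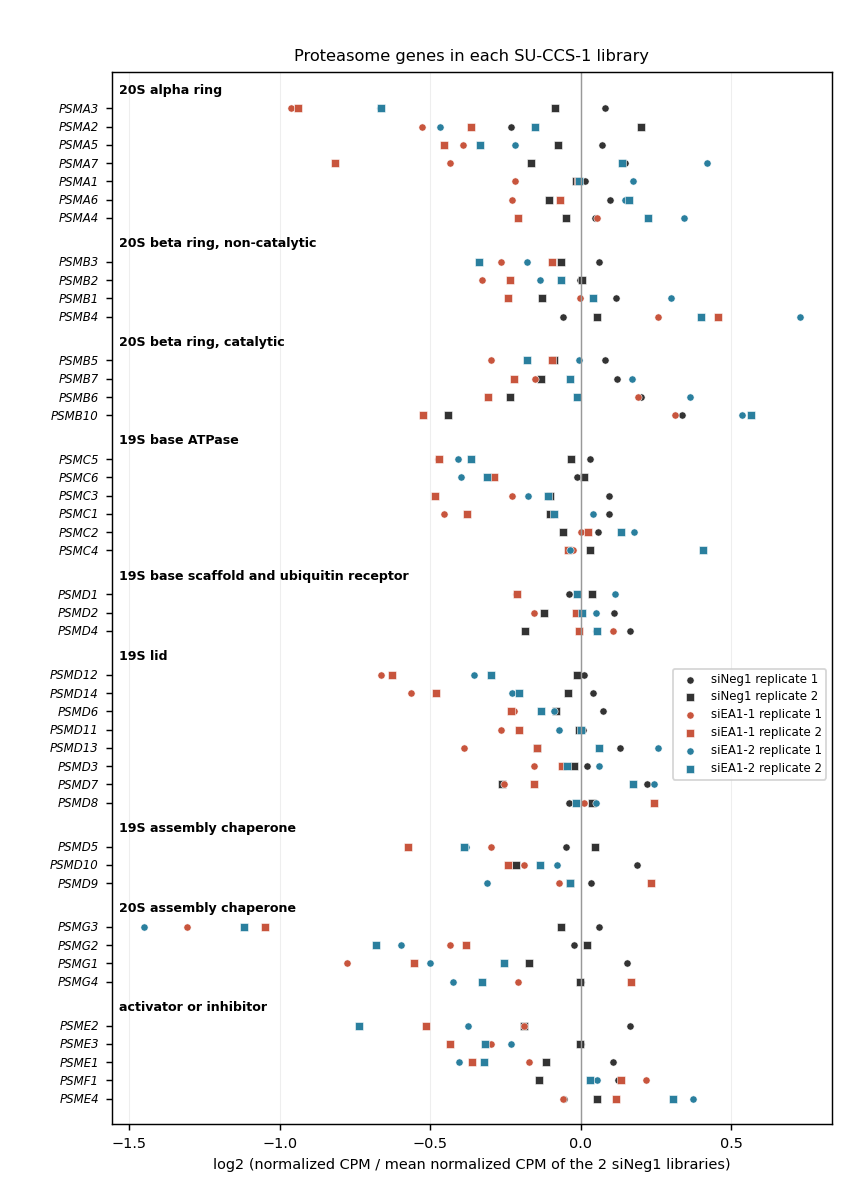
Level of the 44 proteasome genes in each of the 6 SU-CCS-1 libraries, as log2 of normalized CPM over the siNeg1 mean, grouped by class; circles are replicate 1 and squares replicate 2. The 4 knockdown libraries lie left of both siNeg1 libraries for 17 genes, farthest for PSMG3 and PSMA3, and right of both for PSMB4.

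**Figure D2:**
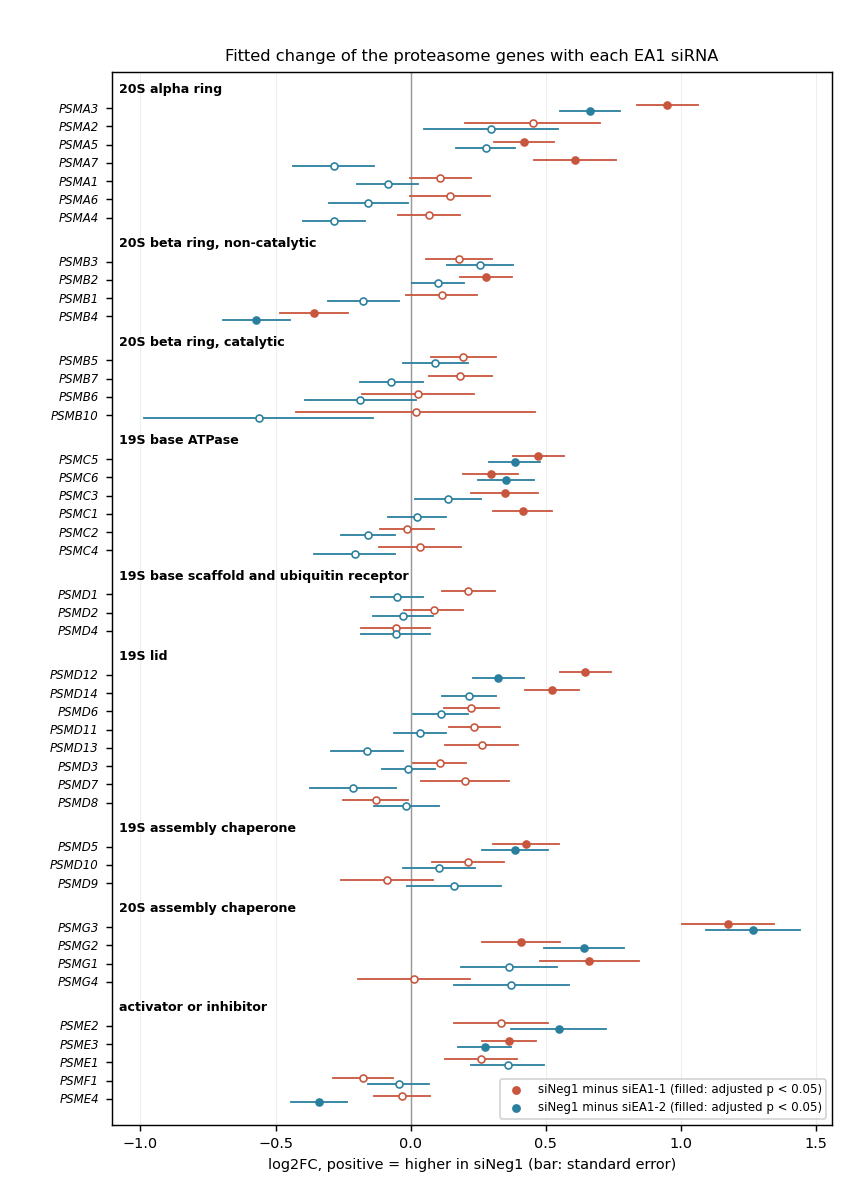
Fitted log2FC of each proteasome gene with siEA1-1 and siEA1-2, positive where siNeg1 is higher; bars are standard errors and filled points have an adjusted p under 0.05 in edgeR's quasi-likelihood test over 14571 genes. With siEA1-1, 15 filled points lie right of 0 and 1 left of it, and with siEA1-2, 9 lie right of 0 and 2 left.

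The chaperones that build the 20S core held the largest change. PSMG3 (ENSG00000157778, chromosome 7 from 1567332 to 1571005 on hg38), a partner of PSMG4 in the assembly of the alpha ring, had normalized CPM of 45.2 and 41.4 with siNeg1, 17.5 and 20.9 with siEA1-1, and 15.8 and 19.9 with siEA1-2. All 4 knockdown libraries lay far below both controls. PSMG3 fell by 55.7% with siEA1-1 (log2FC 1.17, standard error 0.17, adjusted p = 0.000227) and by 58.4% with siEA1-2 (log2FC 1.27, standard error 0.17, adjusted p = 0.000178). PSMG3 shares 60 exon bases (3.04% of its exons) with the antisense PSMG3-AS1, which did not pass the test with either siRNA.

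PSMG2 and PSMG1 form the other chaperone pair of the alpha ring. PSMG2 had CPM of 35.02 and 36.1 with siNeg1, 26.3 and 27.3 with siEA1-1 and 23.5 and 22.2 with siEA1-2, without overlap. PSMG2 fell with siEA1-1 (log2FC 0.41, adjusted p = 0.0417) and with siEA1-2 (log2FC 0.64, adjusted p = 0.00516). Its siEA1-1 call held in 7 of the 13 alternatives, and its siEA1-2 call in all 13. PSMG1 fell with siEA1-1 (log2FC 0.66, adjusted p = 0.0127), while with siEA1-2 its log2FC was 0.36 and its adjusted p 0.136. PSMG4 stood at 14.8 and 14.8 CPM with siNeg1, 12.8 and 16.6 with siEA1-1 and 11.0 and 11.8 with siEA1-2. It is a low gene whose siEA1-1 libraries fell on both sides of the control, and its log2FC was 0.01 and 0.37 with adjusted p of 0.968 and 0.199. Summed over the 4 chaperones, the level was 129 and 120 CPM with siNeg1 and between 72.3 and 86.0 CPM in the knockdown libraries.

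In the alpha ring, 3 of 7 genes fell with siEA1-1 and 1 with siEA1-2. Of all genes, 20.3% and 18.2% were called higher in siNeg1 in these comparisons. PSMA3 (ENSG00000100567, chromosome 14 from 58244843 to 58272012), an alpha subunit, had CPM of 90.6 and 80.6 with siNeg1, 43.9 and 44.6 with siEA1-1 and 53.9 and 54.0 with siEA1-2. Replicates of the knockdowns differed by under 1 CPM, and every knockdown library lay far below both controls. PSMA3 fell by 48.2% with siEA1-1 (log2FC 0.95, standard error 0.11, adjusted p = 5.1e-05) and by 36.9% with siEA1-2 (log2FC 0.66, standard error 0.11, adjusted p = 0.000737). The other alpha genes moved less. PSMA5 fell with siEA1-1 (log2FC 0.42, adjusted p = 0.0105) and had a log2FC of 0.28 with siEA1-2 (adjusted p = 0.0711). PSMA6 had the log2FC nearest 0 on average over both siRNAs, with CPM of 33.8 and 29.4, then 27.02 and 30.1, then 35.1 and 35.4 in siNeg1, siEA1-1 and siEA1-2. Its log2FC was 0.15 with siEA1-1 and -0.16 with siEA1-2, which gives an average of -0.01. PSMA2 had 50 to 110 counts per library and log2FC of 0.45 and 0.30, neither past the threshold (adjusted p = 0.177 and 0.386).

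PSMA7 is the alpha gene that separated the siRNAs. Its CPM were 142 and 114 with siNeg1, 94.6 and 72.6 with siEA1-1, and 171 and 141 with siEA1-2. The siEA1-1 libraries lay below both controls, while the siEA1-2 libraries reached from within the control range to above it. PSMA7 fell with siEA1-1 (log2FC 0.61, standard error 0.15, adjusted p = 0.00787), and with siEA1-2 its log2FC was -0.28 (adjusted p = 0.163), a change called in 1 of the 13 alternatives. The test of siEA1-1 against siEA1-2 itself gave a log2FC of -0.89 (standard error 0.15, adjusted p = 0.0141), where 0.796% of all genes were higher and 1.44% lower in siEA1-1. PSMA7 was the single proteasome gene called in that comparison, and it was not called there without siEA1-1 replicate 2. Over the 44 genes, 33 had a lower fitted level with siEA1-1 than with siEA1-2, and the median log2FC was -0.17, against -0.01 over all genes. In that comparison log2FC was positive for 25% of the 44 genes, against 49.2% of all genes. The summed level of the 44 genes was 4436 and 4129 CPM with siNeg1, 3647 and 3691 CPM with siEA1-1, and 4297 and 4082 CPM with siEA1-2. In this sum siEA1-1 lay below the other libraries, and siEA1-2 overlapped with siNeg1.

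Of the 4 non-catalytic beta genes, PSMB4 was the 1 that rose. PSMB4 (ENSG00000159377, chromosome 1 from 151399560 to 151401937), a subunit that joins the core late, had CPM of 173 and 187 with siNeg1, 215 and 247 with siEA1-1, and 298 and 237 with siEA1-2. All knockdown libraries lay above both controls. PSMB4 rose by 28.3% with siEA1-1 (log2FC -0.36, standard error 0.13, adjusted p = 0.0395) and by 48.6% with siEA1-2 (log2FC -0.57, standard error 0.13, adjusted p = 0.00401). Its siEA1-1 call was lost with RLE size factors and with DESeq2 over 6 libraries. PSMB2 fell with siEA1-1 (log2FC 0.28, adjusted p = 0.037), a call that held in 8 of the 13 alternatives. PSMB1 had the averaged log2FC nearest 0 of its class (log2FC 0.12 with siEA1-1 and -0.18 with siEA1-2), at 119 and 100.2 CPM with siNeg1, 109 and 92.6 with siEA1-1 and 135 and 113 with siEA1-2, with overlap throughout.

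The catalytic genes did not pass the test with either siRNA. PSMB5, the chymotrypsin-like site and the target of bortezomib, had CPM of 85.2 and 75.7 with siNeg1, 65.4 and 75.3 with siEA1-1 and 80.1 and 71.0 with siEA1-2. Its log2FC was 0.19 (standard error 0.12, adjusted p = 0.227) and 0.09 (standard error 0.12, adjusted p = 0.597). PSMB6, the caspase-like site, ranged from 28.5 to 45.4 CPM, and within each condition its replicates differed more than the condition means did. PSMB7, the trypsin-like site, had CPM of 148 and 124 with siNeg1, 123 and 117 with siEA1-1 and 153 and 133 with siEA1-2, so that only the siEA1-1 libraries lay below both controls. PSMB10, which replaces PSMB7 in the immunoproteasome of interferon-treated and lymphoid cells, was near 3 CPM with siNeg1 (4.19 and 2.44). At 14 to 35 counts per library, a log2FC of -0.56 with siEA1-2 had a standard error of 0.42. Its immunoproteasome partners PSMB8 and PSMB9, not among the 44 genes, were also low, at 24.4 and 17.9 CPM and at 7.63 and 8.10 CPM with siNeg1. PSMB9 fell with siEA1-2 (log2FC 0.99, adjusted p = 0.032) and had a log2FC of 0.31 with siEA1-1 (adjusted p = 0.459). PSMB10 shares 39.4% of its exon bases with another gene of the same strand, so its counts are uncertain.

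**Figure D3:**
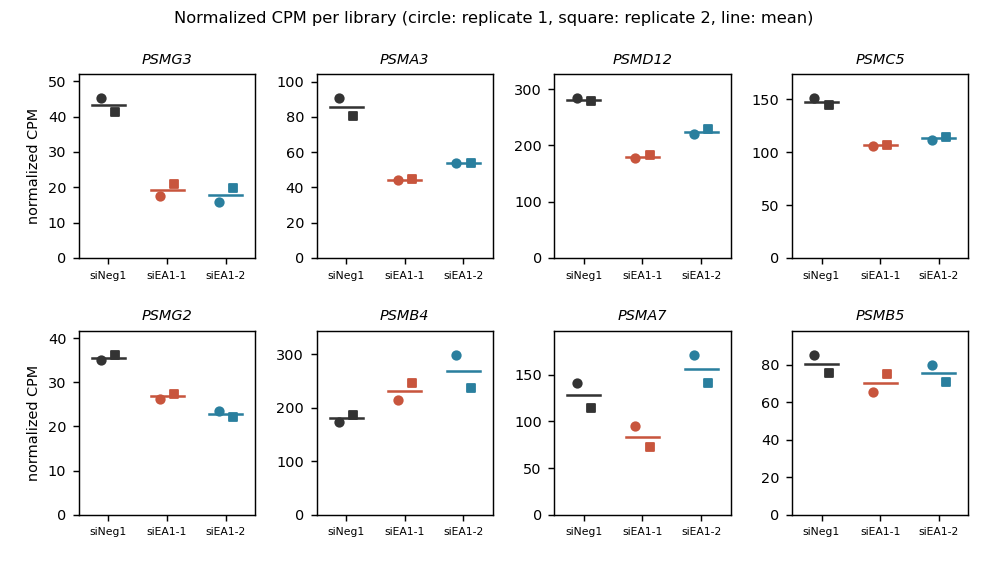
Normalized CPM of 8 proteasome genes in each library by condition, from 0; points are libraries and lines the means of 2. PSMG3, PSMA3, PSMD12, PSMC5 and PSMG2 are lower in all knockdown libraries, PSMB4 is higher, PSMA7 differs between the siRNAs (siEA1-1 at 72.6 and 94.6, siEA1-2 at 141 and 171), and PSMB5 overlaps.

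In the base of the 19S particle, 4 of 6 ATPase genes fell with siEA1-1 and 2 with siEA1-2. The shares of all genes that fell were 20.3% and 18.2%. PSMC5 had CPM of 151 and 144 with siNeg1, 106 and 107 with siEA1-1 and 111 and 115 with siEA1-2. The gap between the controls and the knockdowns was wider than the spread within any condition. PSMC5 fell by 27.95% with siEA1-1 (log2FC 0.47, standard error 0.10, adjusted p = 0.00215) and by 23.4% with siEA1-2 (log2FC 0.38, standard error 0.10, adjusted p = 0.00829). It shares 15.3% of its exon bases with FTSJ3 on the opposite strand, and FTSJ3 had a log2FC of 0.31 and 0.25. PSMC6 had CPM of 82.0 and 83.4 with siNeg1, 67.1 and 67.7 with siEA1-1 and 62.8 and 66.7 with siEA1-2. It fell with each siRNA by about the same amount (log2FC 0.30 and 0.35, adjusted p = 0.039 and 0.0197). PSMC1 fell with siEA1-1 (log2FC 0.41, adjusted p = 0.0104) and had a log2FC of 0.02 with siEA1-2. The difference between the siRNAs for PSMC1 had an adjusted p of 0.0947, and 76.2% of its exon bases are shared with NRDE2 on the opposite strand, whose log2FC was -0.06 and 0.02. PSMC2 had the averaged log2FC nearest 0 of the ATPases (log2FC -0.01 and -0.16), between 87.2 and 103 CPM in all libraries.

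The scaffold genes PSMD1 and PSMD2 and the ubiquitin receptor PSMD4 did not pass the test with either siRNA. PSMD1 had CPM of 213 and 225 with siNeg1, 189 and 189 with siEA1-1 and 237 and 217 with siEA1-2. Its siEA1-1 libraries lay below the controls, with a log2FC of 0.21 (adjusted p = 0.106), and its siEA1-2 log2FC was -0.05. PSMD2 stood between 234 and 282 CPM in all libraries, with averaged log2FC of 0.03.

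Among the 8 lid genes, 2 fell with siEA1-1 and 1 with siEA1-2, where 20.3% and 18.2% of all genes fell. PSMD12 (ENSG00000197170, chromosome 17 from 67337916 to 67366605), a structural lid subunit, had CPM of 283 and 279 with siNeg1, 177 and 182 with siEA1-1 and 220 and 229 with siEA1-2. The conditions formed separate levels with siEA1-1 lowest. PSMD12 fell by 36.1% with siEA1-1 (log2FC 0.65, standard error 0.09, adjusted p = 0.000225) and by 20.2% with siEA1-2 (log2FC 0.32, standard error 0.09, adjusted p = 0.0178), and the difference between the siRNAs had an adjusted p of 0.107. PSMD14, the deubiquitinase of the lid, fell with siEA1-1 (log2FC 0.52, adjusted p = 0.00144) and had a log2FC of 0.22 with siEA1-2 (adjusted p = 0.11). PSMD7, the partner of PSMD14, had the averaged log2FC nearest 0 of the lid genes: it had 47.3 and 33.8 CPM with siNeg1, 34.0 and 36.4 with siEA1-1 and 48.1 and 45.8 with siEA1-2. Its control libraries lay farther apart than the conditions, and 31.2% of its exon bases are shared with an antisense noncoding gene.

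Of the chaperones that assemble the base, PSMD5 fell and PSMD9 and PSMD10 did not pass. PSMD5 had CPM of 68.4 and 73.2 with siNeg1, 57.6 and 47.6 with siEA1-1 and 54.3 and 54.0 with siEA1-2, without overlap. Its log2FC was 0.43 (adjusted p = 0.016) and 0.39 (adjusted p = 0.0282). PSMD9 stood between 21.5 and 31.5 CPM in all libraries, with averaged log2FC of 0.04.

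The activators that replace the 19S cap did not move together. PSME3, the nuclear activator, had CPM of 185 and 185 with siNeg1, 150.2 and 137 with siEA1-1 and 158 and 148 with siEA1-2. PSME3 fell slightly with each siRNA (log2FC 0.36 and 0.27, adjusted p = 0.012 and 0.0486). PSME1 and PSME2 form the interferon-inducible activator and lie near each other on chromosome 14. PSME2 had CPM of 56.1 and 43.97 with siNeg1, 43.9 and 35.1 with siEA1-1 and 38.6 and 30.04 with siEA1-2, the lower control just above the highest knockdown. Its log2FC was 0.33 (adjusted p = 0.149) and 0.55 (adjusted p = 0.0302), and that of PSME1 was 0.26 and 0.36 (adjusted p = 0.147 and 0.056). PSME4, a large nuclear activator, had CPM of 135 and 145 with siNeg1, 134 and 152 with siEA1-1 and 181 and 173 with siEA1-2. PSME4 rose with siEA1-2 (log2FC -0.34, adjusted p = 0.024), a call that held in 7 of the 13 alternatives. Its log2FC was -0.03 with siEA1-1, and the difference between the siRNAs did not pass (adjusted p = 0.161). PSMF1, an inhibitor of the core, stood between 94.9 and 121 CPM and did not pass.

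Levels of different genes were compared per kb of the canonical transcript in siNeg1. The 44 genes spanned 3.39 to 196 CPM per kb, with a median of 48.1 CPM per kb. The 17 genes of the 19S base and lid lay from 24.8 to 111 CPM per kb, a 4.48-fold range. The 14 constitutive genes of the 20S core, whose proteins are used in equal number, spanned a 22.8-fold range. It ran from PSMA2 at 8.58 to PSMB4 at 196 CPM per kb, and the next lowest of these genes, PSMA5, stood at 20.9. Per kb of all annotated exons of a gene, these ranges were 5.01-fold for the 19S genes and 57.6-fold for the core genes, so the width of the core's range depended on the length used. PSMB7 (138) and PSMA7 (133) followed PSMB4, and their siNeg1 libraries overlapped each other. PSMB4, already the highest per kb with siNeg1, was the gene that rose with both siRNAs. PSMA2 shares 1445 exon bases (17.3% of all its annotated exons) with another protein-coding gene of the same strand, and its canonical transcript has 1434 bases. Its level per kb, which sets the low end of the core's range, is therefore uncertain. PSMA6 likewise shares 919 exon bases with a gene of the same strand, and its canonical transcript has 1023 bases. Of the 44 genes, 17 have named pseudogenes with which they may share reads. Chaperones, which act in assembly and leave the finished particle, lay from PSMD9 at 9.81 to PSMD10 at 55.9 CPM per kb, and those of the 20S core alone from 17.7 to 33.2 CPM per kb.

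**Figure D4:**
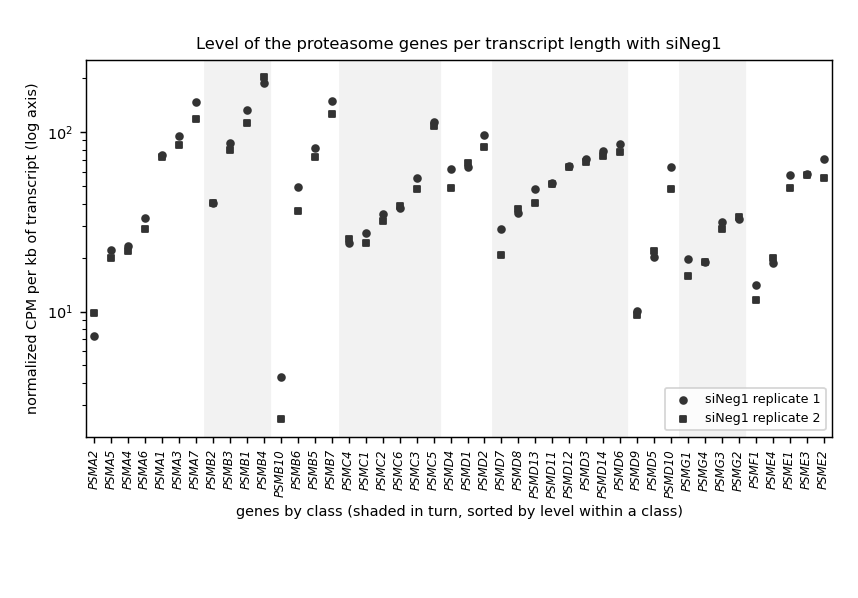
Normalized CPM per kb of canonical transcript of the 44 proteasome genes in the 2 siNeg1 libraries, on a log axis, by class in the order alpha ring, non-catalytic beta, catalytic beta, ATPases, scaffold, lid, base chaperones, core chaperones and activators. Core genes spread from 8.58 (PSMA2) to 196 (PSMB4), and PSMB10 is lowest at 3.39.

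Other genes of the system were read from 5 lists. Of all genes, 20.3% fell and 19.9% rose with siEA1-1, and 18.2% fell and 18.5% rose with siEA1-2. Of 16 proteasome proteins outside the 44 genes, PSMB8 and PSMB9 among them, 7 fell and 1 rose with siEA1-1, and 4 fell and 1 rose with siEA1-2. UCHL5, a deubiquitinase of the 19S particle, had CPM of 102 and 101 with siNeg1, 43.1 and 42.2 with siEA1-1 and 44.1 and 54.3 with siEA1-2. UCHL5 fell with each (log2FC 1.25 and 1.04, adjusted p = 1.21e-05 and 5.41e-05), and its siEA1-1 log2FC was above that of each of the 44 genes. ADRM1, the receptor that recruits UCHL5, fell with siEA1-1 (log2FC 0.52, adjusted p = 0.0053) and had a log2FC of 0.18 with siEA1-2 (adjusted p = 0.282). ZFAND5, which stimulates the proteasome, fell with each (log2FC 0.72 and 0.47, adjusted p = 0.000448 and 0.00821), and FBXO7, an F-box protein that binds PSMF1, rose (log2FC -0.41 and -0.32, adjusted p = 0.00555 and 0.022). The small lid subunit SEM1 and the core maturation factor POMP did not pass, with averaged log2FC of -0.16 and -0.10.

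Of 10 genes of the NFE2L1 pathway and its partners, 4 fell and 1 rose with each siRNA. The shares of all genes that fell were 20.3% and 18.2%, and those that rose 19.9% and 18.5%. NFE2L1 itself had CPM of 732 and 687 with siNeg1, 801 and 820 with siEA1-1 and 760 and 755 with siEA1-2. The knockdowns lay slightly above the controls without passing the test (log2FC -0.19 and -0.09, adjusted p = 0.155 and 0.509). MAFK, a small Maf protein that pairs with NFE2L1 and NFE2L2, had CPM of 118 and 111 with siNeg1, 13.7 and 13.5 with siEA1-1 and 17.8 and 16.4 with siEA1-2. MAFK fell with each (log2FC 3.07 and 2.74, adjusted p = 1.11e-07 and 1.91e-07), the largest change in these lists. NFE2L2, the oxidative stress factor, fell with each (log2FC 0.72 and 0.65), and the related MAFF rose (log2FC -0.49 and -0.60).

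Of 6 genes for ubiquitin and its activating enzymes, UBB was the 1 that passed with each siRNA, and it rose (log2FC -0.73 and -0.83, adjusted p = 0.000109 and 5.32e-05). Among 14 genes of VCP, the segregase that extracts substrates, and of shuttle factors, 3 fell and 1 rose with siEA1-1, and 2 fell and 3 rose with siEA1-2. NSFL1C, a VCP cofactor, fell (log2FC 0.83 and 0.75), while the shuttle UBQLN2 rose (log2FC -0.64 and -0.54). Among 9 heat shock genes, 5 fell and 1 rose with siEA1-1, and 2 fell and 2 rose with siEA1-2. BAG3, a co-chaperone of HSP70, fell (log2FC 1.02 and 0.69), as did the heat shock factor HSF1 (log2FC 0.33 and 0.43), and the small heat shock gene HSPB1 rose (log2FC -0.76 and -0.85). All of these calls are from the same edgeR test. In it, 20.3% of all genes fell and 19.9% rose with siEA1-1, and 18.2% fell and 18.5% rose with siEA1-2.

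**Figure D5:**
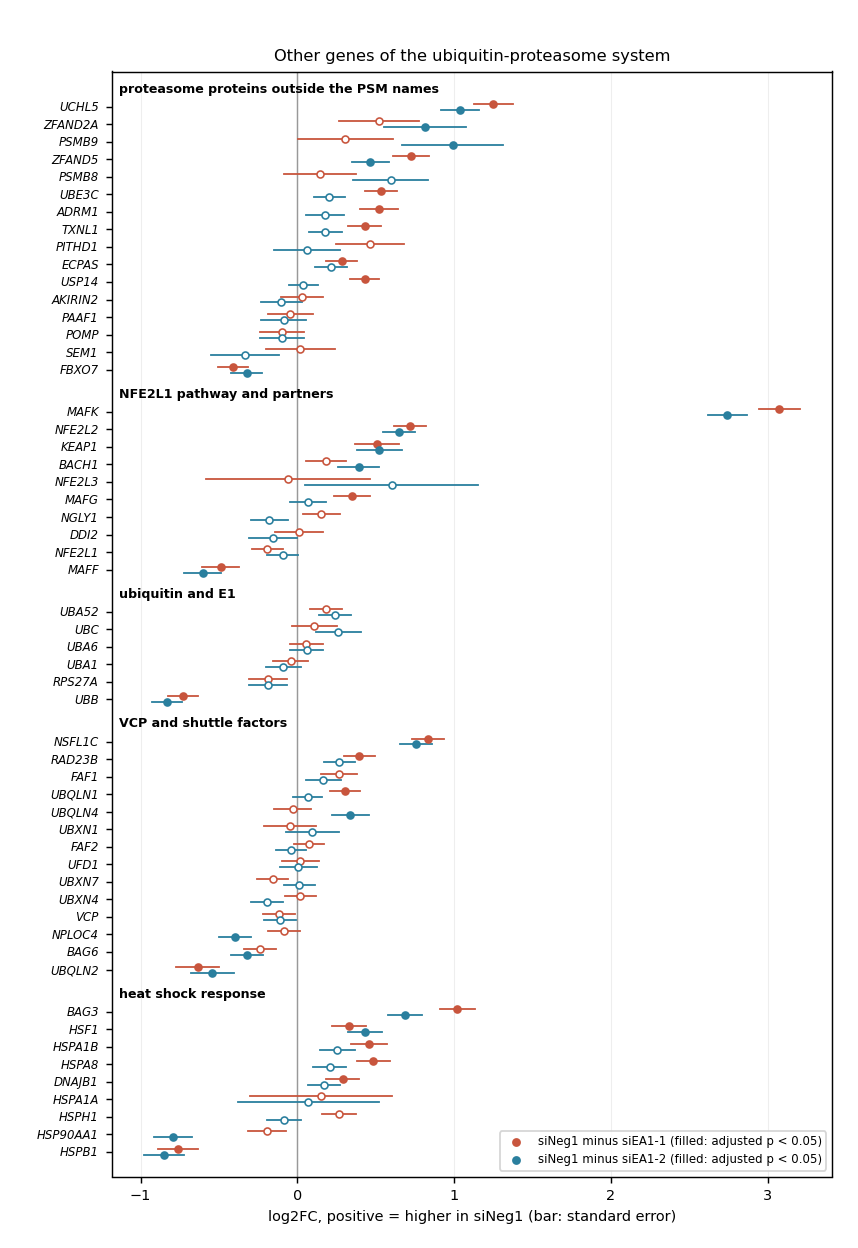
Fitted log2FC with siEA1-1 and siEA1-2 of 55 other genes of the ubiquitin-proteasome system in 5 lists, positive where siNeg1 is higher; bars are standard errors and filled points have an adjusted p under 0.05 in edgeR's test. MAFK (3.07 and 2.74) and UCHL5 (1.25 and 1.04) lie farthest right, and HSPB1 (-0.76 and -0.85) and UBB (-0.73 and -0.83) lie left of 0 with both.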

How the data were processed

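The authors aligned paired reads of stranded, polyadenylated RNA libraries to hg38 with BWA-MEM and counted them per gene with featureCounts 1.6.3. The deposited values are raw counts, not normalized and not pooled. The annotation, strand setting and treatment of reads that map to several places are not given in the sources used here, so antisense neighbours, readthrough genes and pseudogenes can share reads. BWA-MEM does not model splicing.

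Counts were tested with edgeR 4.0.16 (R 4.3.3): filterByExpr with the condition as group (at least 10 counts, total at least 15), TMM factors, and glmQLFit and glmQLFTest over 3 conditions in 6 libraries, with Benjamini-Hochberg adjustment over the 14571 genes tested and a threshold of 0.05. The fit was tested on simulated data. Normalized CPM are counts scaled to the TMM-adjusted library size. Standard errors come from the F statistic. Coordinates, exons and canonical transcripts are from GENCODE 44, which holds 18063 of 18118 identifiers. The floor covers counting error only, whereas standard errors include the fitted spread between libraries.

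Alternatives were RLE factors, total counts, other filters, the replicate number as a block, the knockdown libraries as 1 condition, DESeq2 1.42.0, and each library left out. The proteasome genes and all lists were chosen with earlier results of these data known. Named were genes called in the same direction with each siRNA without overlap, the genes of largest and smallest averaged change in each class, those called between the siRNAs, catalytic and activator genes, PSMB8 and PSMB9, in each other list the 3 largest of those called with each siRNA, NFE2L1, ADRM1, SEM1, POMP and ATF1. Genes named beyond this, such as PSMA2, PSMA5, PSMB2, PSMC1, PSMC3, PSMD10, PSMD14 and PSMG1, and the neighbours of proteasome genes, were named after their values were seen. A gene of the list of VCP and shuttle factors is not reported here and was left out of that list's counts.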

Additional observations from a re-analysis of the deposited data

Results flagged for a closer look

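PSMA7 differed between the EA1 siRNAs. Its log2FC of siEA1-1 minus siEA1-2 was -0.89 (standard error 0.15, adjusted p = 0.0141 by edgeR's quasi-likelihood test), with both siEA1-1 libraries (72.6 and 94.6 CPM) below both siEA1-2 libraries (141 and 171 CPM). Over the 13 alternatives the value lay between -1.10 and -0.71, and it was called in 12 of them. The exception left out siEA1-1 replicate 2. Conditions of 2 libraries were not searched for libraries that stand apart.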

How the results depend on the processing

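Counts of proteasome genes called were compared over the alternatives. With siEA1-1, the count that fell was 15 and ranged from 6 to 17 when each library was left out, and the count that rose, 1, became 0 with RLE size factors and with DESeq2 over 6 libraries and ranged from 0 to 1 when each library was left out. With siEA1-2, the 9 that fell became 5 (11.4%, against 13.2% of all genes) with DESeq2 over 6 libraries and 3 (6.82%, against 12.5%) with DESeq2 on only the libraries compared, and ranged from 3 to 8 when each library was left out. The 2 that rose became 1 with total counts and with either DESeq2 fit, and ranged from 1 to 2. Averaged over both siRNAs, the 13 that fell ranged from 6 to 15 and the 1 that rose from 0 to 1. Between the siRNAs, the count lower in siEA1-1 was 1, became 2 with the replicate block and depended on siEA1-1 replicate 2. None was higher under any alternative.

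The labels share replicate numbers without saying what they mark, and deviations of same-numbered libraries correlated at 0.130, 0.199 and 0.144 across genes. With the replicate block, 4 genes (9.09%) rose with siEA1-2 in place of 2, where 20.5% of all genes did in place of 18.5%, and PSMA7 (log2FC -0.29, adjusted p = 0.0244) and PSMA4 were the genes added. With it, 2 in place of 1 were lower in siEA1-1 than in siEA1-2, where 3.64% of all genes were in place of 1.44%. Under the block, 16 fell with siEA1-1 (36.4%, against 22.4% of all genes), 11 with siEA1-2 (25%, against 20.2%) and 13 on average (29.5%, against 24%).

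Averaged log2FC near 0 turned sign: PSMA6 was 0.00965 with RLE factors, 0.0258 with total counts and 0.0111 with DESeq2 over 6 libraries, PSMD7 was 0.00888, 0.0243 and 0.0117, and PSMB1 was 0.00195 with total counts. When each library was left out, averaged log2FC ranged from -0.11 to 0.13 for PSMA6, from -0.00182 to 0.34 for PSMA7, from -0.16 to 0.12 for PSMB1, from -0.70 to 0.11 for PSMB10, from -0.31 to 0.16 for PSMB6, from -0.0735 to 0.21 for PSMB7, from -0.14 to 0.00711 for PSMC2, from -0.0938 to 0.17 for PSMD2, from -0.26 to 0.25 for PSMD7, from -0.0385 to 0.14 for PSMD9 and from -0.25 to 0.0495 for PSMF1. None of these passed the test with both siRNAs averaged. The cause was not tested. Conditions of 2 libraries and counts of 14 to 2169 limit what can be told apart, and PSMB10 and PSMA2 most.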

Other observations

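The 9 proteasome genes called in the same direction with each EA1 siRNA were set beside the tested genes within 50 kb on hg38, a step chosen after the values were seen. They had 27 such neighbours, of which 5 (18.5%) were called with each siRNA in the direction of the proteasome gene and 3 (11.1%) in the other direction by edgeR's adjusted p. Of all genes, 15.1% were called higher and 14.8% lower in siNeg1 with each siRNA, so these shares are near the background. MAFK, which fell with log2FC of 3.07 and 2.74, lies 24289 bases from PSMG3, the proteasome gene that fell most. SPIRE1, an actin nucleation factor gene, starts 64 bases from PSMG2 on the opposite strand and overlaps it. SPIRE1 rose (log2FC -1.15 and -1.08, adjusted p = 9.12e-06 and 1.83e-05), whereas PSMG2 fell (log2FC 0.41 and 0.64). CEP76 also overlaps PSMG2 on the opposite strand and shares 468 exon bases with it, where SPIRE1 shares 65. CEP76 had a log2FC of 0.75 and 0.59 (adjusted p = 0.0181 and 0.0551), in the direction of PSMG2. ARMH4, which overlaps PSMA3 on the opposite strand, rose (log2FC -1.93 and -2.16, adjusted p = 8.63e-06 and 5.08e-06), whereas PSMA3 fell. POGZ, 787 bases from PSMB4, rose as PSMB4 did (log2FC -0.64 and -0.54).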
